A study of Mus musculus with 2 samples.

Results

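The Zfp genes are mouse genes named for a zinc finger protein and a number. They were chosen by symbol (Zfp followed by a digit) and selected on measured values, the scanner's flag that a probe was well above background on both arrays. The gene table held 416 such symbols, 369 of them had a named probe, and 205 met the rule, among 10223 genes measured on both arrays. Of the 205, 203 are listed as protein coding, while Zfp783 is listed as a long non-coding RNA and Zfp133-ps as a pseudogene. The choice used detection on the 2 arrays being compared, so the values below describe these arrays and carry no test.

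Blood cells were sorted from mouse fetal liver at E13.5 by the F405/F488 fluorescence ratio (in nm) of SoNar, a genetically encoded sensor of the cytosolic NADH/NAD+ state. The SoNar-high group was labelled with the strain C57BL/6 and the SoNar-low group with C57BL, and no treatment or further allele was labelled for either. The labels used here state neither the promoter that drives the sensor nor the number of embryos behind each sample. Total RNA of each group was labelled with Cy3 and hybridised to 1 Agilent array, so there were 2 arrays and no replicates. The comparison asks which genes differ in level when the sensor ratio is high rather than low. RNA came from a bulk sort, so fewer cells of a type and less RNA per cell cannot be told apart.

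Most Zfp proteins are transcription factors that read DNA with arrays of C2H2 zinc fingers, in which paired cysteines and histidines hold a zinc ion. Many of them also carry a KRAB domain, which recruits the co-repressor TRIM28 (KAP1) and, through it, the histone methyltransferase SETDB1 and heterochromatin proteins. KRAB zinc finger genes lie in clusters of related copies and are known for silencing retroelements and for protecting imprinted marks in early embryos. The name also covers unrelated proteins, such as the CCCH-type Zfp36 family, which binds AU-rich elements in messenger RNA and promotes its decay.

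Throughout, a difference is the log2 of the processed intensity in SoNar-high minus that in SoNar-low, after each array was divided by its own 75th percentile (186.5 units for SoNar-high, 222.2 for SoNar-low). Positive values are higher in SoNar-high. The error given after ± is the scanner software's estimate for the spots, combined over both arrays. It had a median of 0.22 (log2) over the Zfp genes and covers neither animals, sorts nor labelling. Of 43020 non-control spots, 49.4% passed the detection flag in SoNar-high and 42.4% in SoNar-low. Precision is limited by having 2 arrays. Probe sequences were not used here, so signal shared between related copies is uncertain for every gene of a cluster.

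The Zfp genes as a set leaned towards SoNar-low, by little. Their median difference was -0.21 against -0.08 over all measured genes, and the central part of the distribution ran from -0.56 (lower quartile) to 0.08 (upper quartile), against -0.45 to 0.32 over all genes. Of the 205 genes, 143 (69.8%) had a difference below 0 and 62 above 0, and the share below 0 was 55.8% over all measured genes. Against the median of all genes in place of 0, 130 Zfp genes (63.4%) lay below. The median stayed negative under all 10 other processing settings, between -0.26 and -0.032. With the 75th percentile taken over detected probes, a choice that set the all-gene median at 0.10, the share of Zfp genes below 0 was 54.1% and that of all genes 43.3%. With dim probes kept in, the Zfp median was -0.090 against 0.024 over all genes, and 56.9% against 48.4% lay below 0.

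Most members differed little. The difference was under 2-fold for 186 Zfp genes (90.7%), close to the 90.3% of all genes. It was smaller than 0.5 in size for 129 of 205 Zfp genes and for 6218 of all 10223 genes. Only 4 (1.95%) were at least 2-fold higher in SoNar-high, where 5.28% of all measured genes were, and 15 (7.32%) were at least 2-fold lower, where 4.44% of all measured genes were. At 3-fold there were 1 higher (1.43% of all measured genes) and 2 lower (0.47% of all measured genes). With the percentile over detected probes the 2-fold split was 7 higher (3.41%) and 9 lower (4.39%), against 7.99% and 2.22% of all genes. With dim probes kept in, more Zfp genes were higher than lower. Of 369, 29 (7.86%) were then higher and 21 (5.69%) lower, against 12% and 3.19% of all genes. Set against their own spot error, 13 members (6.34%) were higher by more than 2 errors and 62 (30.2%) lower by more than 2 errors, against 17.6% and 25.7% of all genes. The difference lay within 2 errors for 130 of 205 members and for 5788 of all 10223 genes. The levels on the 2 arrays correlated across the Zfp genes with Pearson's r of 0.945, where genes are not independent replicates.

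**Figure D1:**
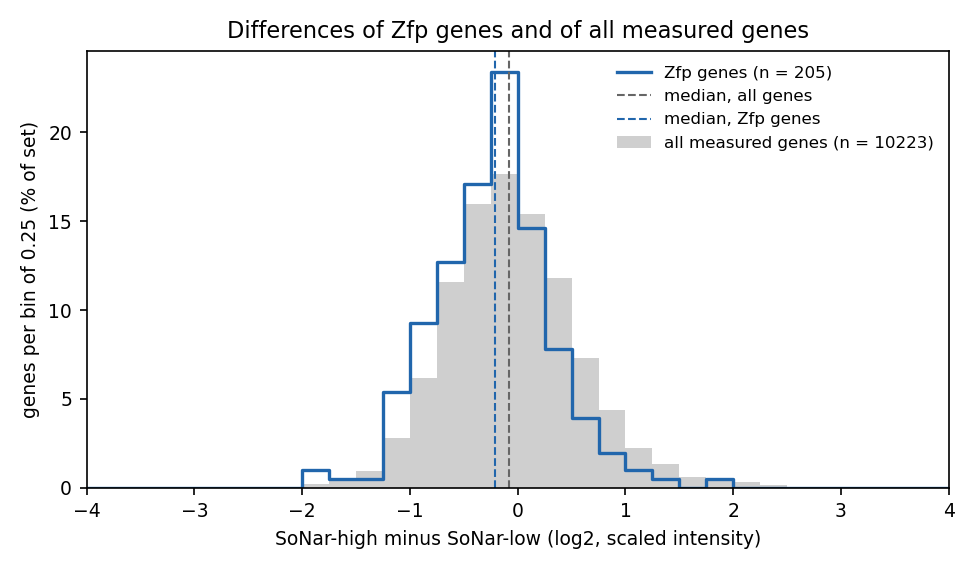
Histogram of the log2 difference between SoNar-high and SoNar-low in bins of 0.25, as the percentage of each set, for 205 Zfp genes (blue outline) and 10223 measured genes (grey bars). Dashed lines mark the medians, -0.21 for the Zfp genes and -0.08 for all genes, and 69.8% of the Zfp genes lie below 0.

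Marker genes of several cell types also differed between the arrays. Of 12 measured erythroid markers, 10 were at least 2-fold higher in SoNar-high (summed signal 18760 units against 9223), as were 8 of 9 macrophage (21800 against 9033), 6 of 7 hepatoblast (13459 against 4978), 4 of 6 endothelial (6352 against 4856) and 3 of 11 granulocyte markers (226105 against 178073). Lower in SoNar-high by at least 2-fold were 3 of 11 stem and progenitor (14305 against 26985), 7 of 10 B lymphoid (5181 against 17583) and 4 of 6 T and natural killer markers (1989 against 7566). The T and natural killer markers Cd3e (0.87) and Nkg7 (0.22) were above 0, and the endothelial marker Egfl7 was below 0 (-0.31). In every other set all measured markers lay on 1 side of 0. The sums are of signals before scaling, and single genes can dominate them. Gzma alone gave 240.6 and 4279 units of the T and natural killer sums. Csf1r, at a difference of 0.18, gave 5979 and 6309 units of the macrophage sums. Egfl7 gave 2604 and 3843 units of the endothelial sums. Detected on 1 array only were 4 T and natural killer markers, 2 macrophage markers, and 1 each of the erythroid, B lymphoid, hepatoblast and endothelial markers. Not well above background on either array were Sptb, Mertk, Cd163, Mecom, Erg, Apoa1 and Emcn. The part of these cell types in the Zfp differences was not tested.

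Zfp probes were dim. The median processed signal of the members was 144.8 units in SoNar-high and 200.3 units in SoNar-low, against 320.7 and 404.6 units over all genes. With all measured genes divided by mean signal into 5 bins of equal size, 66 members fell in the dimmest bin, then 62, 50 and 15, and 12 in the brightest. In the dimmest bin the other genes were slightly higher in SoNar-high (median 0.13), whereas the Zfp genes had a median of -0.14. In the next bin the medians were -0.19 for Zfp genes and 0.04 for other genes, and in the middle bin they were -0.45 and -0.14. In the 2 brighter bins the Zfp medians were -0.22 and -0.19 and those of the other genes -0.19 and -0.17. These gaps changed with the normexp setting, which uses the median spot signal and an offset of 50. From the dimmest bin to the brightest they were then -0.11, -0.20, -0.17, -0.20 and -0.083. Which part of that setting moved them was not tested. The Zfp median was the lower one in all 5 bins with the main setting, after normexp and after loess, and in 4 of 5 after quantile normalization and in the deposited table, where it was above that of the other genes in the brightest bin, by 0.0021 and 0.00088.

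**Figure D2:**
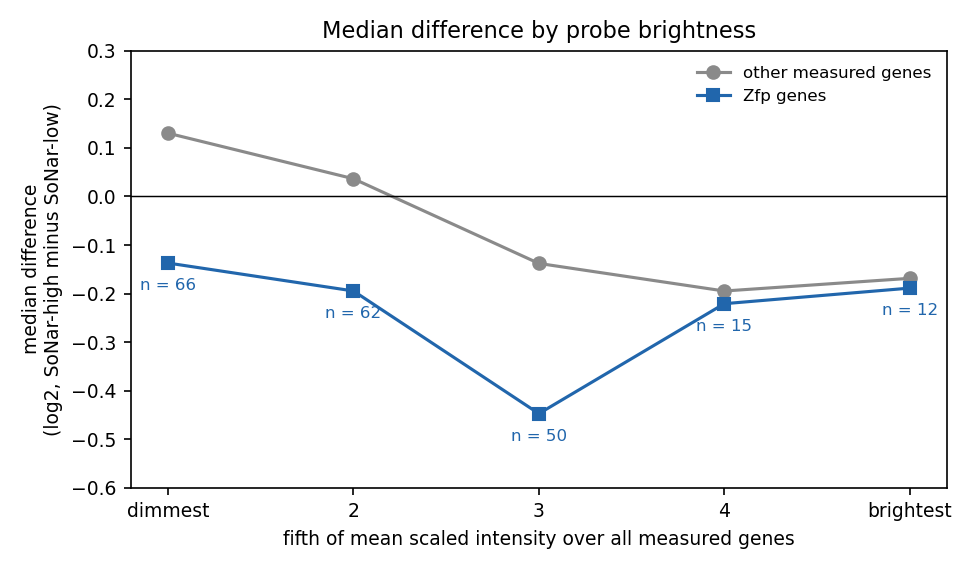
Median log2 difference (SoNar-high minus SoNar-low) in each of 5 equal bins of mean scaled intensity, for Zfp genes (blue squares, with their number) and the other measured genes (grey circles). The Zfp line lies below the other in every bin and furthest below in the middle one, at -0.45 against -0.14.

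The 4 Zfp genes at least 2-fold higher in SoNar-high were Zfp790, Zfp276, Zfp692 and Zfp628. Zfp790 gave 385.9 units in SoNar-high and 131.7 in SoNar-low, a log2 difference of 1.80 ± 0.23 (3.49-fold). It was the only one of the 4 that stayed above 2-fold under all settings, between 1.29 and 1.98. Zfp276, whose protein carries a zinc-finger-associated domain, gave 133.5 against 63.0 units, a log2 difference of 1.34 ± 0.28. After normexp background correction, which pulls dim probes together, it was 0.70. Zfp692, described as a factor that binds an AICAR response element, gave 419.1 against 233.6 units (1.1 ± 0.21, and 0.76 after normexp). Zfp628, a factor needed in male germ cells, had the brightest probe of the 4, with 2689 against 1531 units (1.07 ± 0.20, and 0.89 after normexp). Its other measured probe had a difference of 0.50, so the median over its probes was 0.78. For Zfp790, Zfp276 and Zfp692 a single probe was measured.

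The lower members began with Zfp711, Zfp119b and Zfp266. Zfp711, an X-linked factor that works with the histone demethylase PHF8, gave 35.5 units in SoNar-high and 148.0 units in SoNar-low, a log2 difference of -1.81 ± 0.35 (3.50-fold lower). The SoNar-high signal was near the dimmest that counted as detected, and the difference was -0.87 after normexp. Zfp119b gave 171.7 against 708.3 units (-1.79 ± 0.21) and kept a size above 2-fold under all settings, between -1.79 and -1.58. Zfp266 gave 172.4 against 586.4 units (-1.51 ± 0.21) and had a second probe at -0.49. No setting took it under 2-fold, the median over both probes included.

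Another group of 6 lower members lay between -1.26 and -1.19. Zfp760 gave 48.3 against 137.7 units (-1.26 ± 0.29, and -0.65 after normexp). Zfp664 gave 231.2 against 649.7 units (-1.24 ± 0.21), but its second probe was higher in SoNar-high, at 0.34, and the median over its probes was -0.45. Zfp292, a very large zinc finger protein, gave 204.2 against 571.7 units (-1.23 ± 0.21, and -0.99 after normexp). These 3 genes show how differently the same size of difference is backed, by 1 dim probe, by probes that disagree, and by 1 brighter probe. Zfp747 gave 88.8 against 247.4 units (-1.23 ± 0.23), with a second probe at -0.38, and Zfp770 gave 103.9 against 287.5 units (-1.21 ± 0.23). After normexp they were -0.78 and -0.87. Zfp36l1, the messenger RNA decay factor that with Zfp36l2 restrains cell cycling of B-cell precursors, gave 553.0 against 1498 units (-1.19 ± 0.20). It stayed at -1.22 after normexp and was -0.97 after loess.

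The remaining 6 lower members lay near the 2-fold line. Zfp367, reported as a factor of globin genes in erythroid cells, had the brightest probe of all 15 lower members, with 1007 against 2581 units (-1.10 ± 0.20), and was under 2-fold in 5 of 10 settings. Zfp981 (-1.12 ± 0.25), Zfp947 (-1.10 ± 0.21), Zfp955a (-1.08 ± 0.22), Zfp783 (-1.02 ± 0.21) and Zfp960 (-1.02 ± 0.35) were under 2-fold after normexp and with the percentile over detected probes. Zfp783 was under 2-fold in 6 of 10 settings, Zfp947 in 4 of 10 and Zfp960 in 3 of 9. Just inside the 2-fold size were thus Zfp960 and Zfp783 on the lower side and Zfp628 on the higher side. Just outside it were Zfp280c (-0.98), Zfp946 (-0.95) and Zfp534 (-0.94) on the lower side and Zfp384 (0.98), Zfp74 (0.95) and Zfp36l3 (0.84) on the higher side. No member's sign changed under any setting among the 19 genes at least 2-fold apart. A single probe was measured for 11 of the 15 lower members and for 3 of the 4 higher members.

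**Figure D3:**
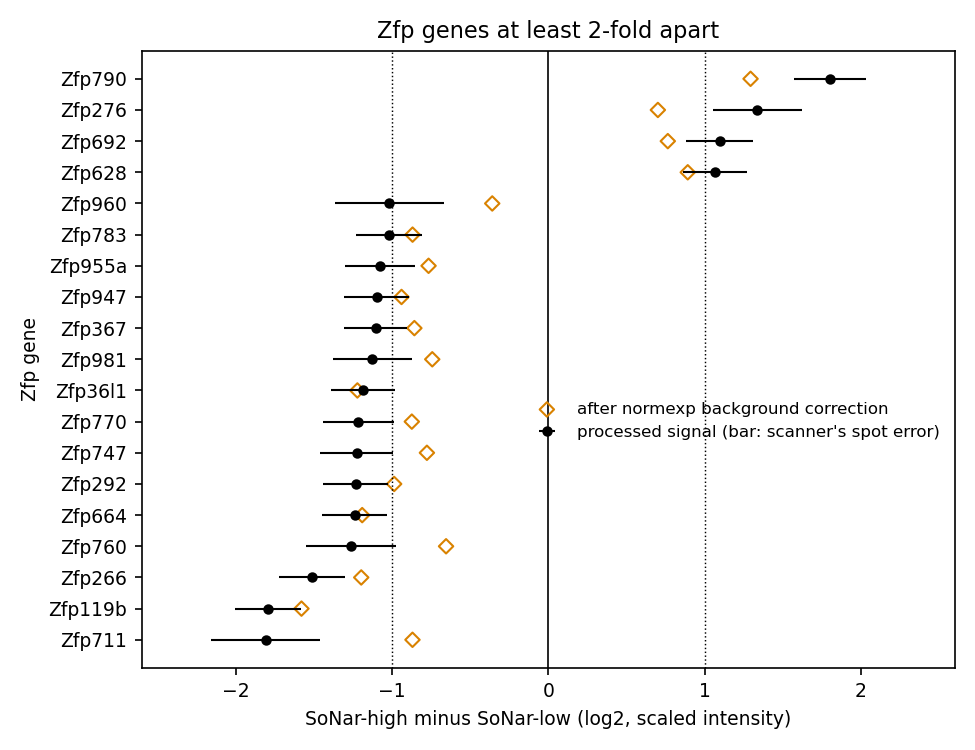
Log2 difference (SoNar-high minus SoNar-low) of the 19 Zfp genes at least 2-fold apart, with the scanner's spot error as bars (filled circles) and the value after normexp background correction (open diamonds). Dotted lines mark 2-fold, and after normexp 4 of the 15 lower and 1 of the 4 higher genes keep that size.

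**Figure D4:**
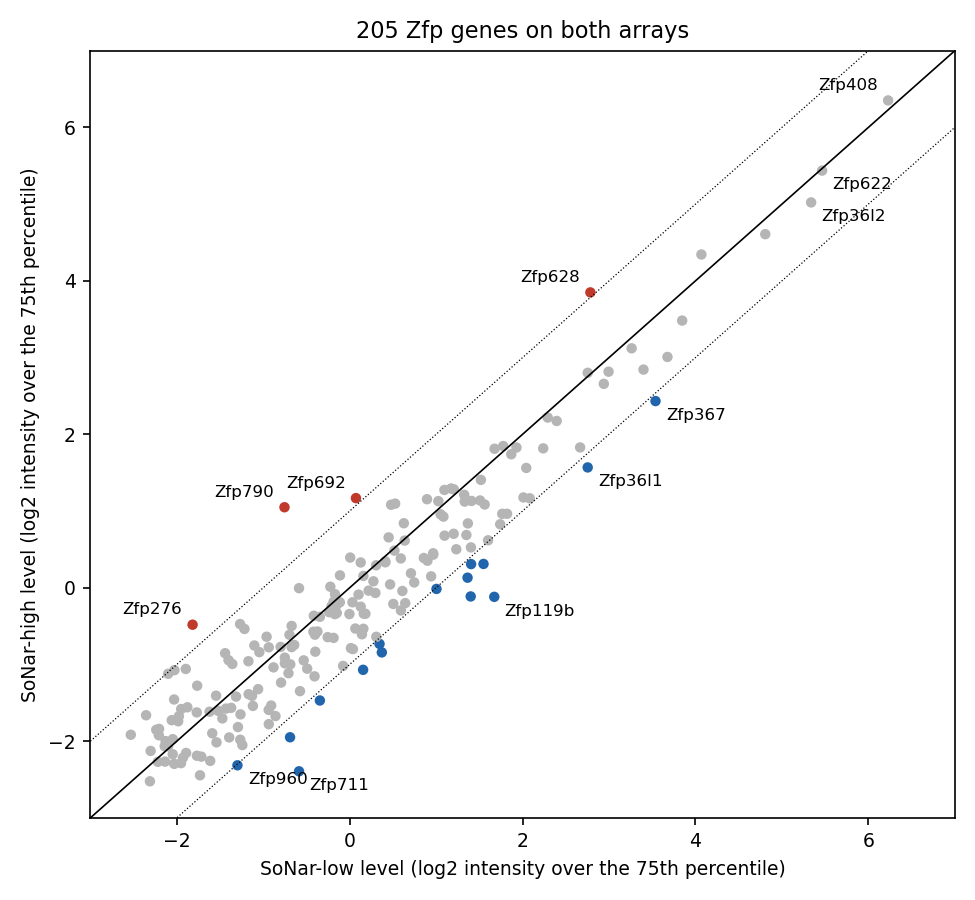
Level of each of the 205 Zfp genes on the SoNar-low (horizontal) and the SoNar-high (vertical) array, as log2 of intensity over the 75th percentile of the array. The solid line marks equal levels and dotted lines 2-fold, red points are the 4 genes at least 2-fold higher and blue points the 15 at least 2-fold lower in SoNar-high, and most points lie close to the solid line.

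The stretch of 250 bases before the gene start is shown for 7 of the genes at least 2-fold apart, each with 1 promoter window in the RefSeq table (GRCm38.p6). These are the 3 higher genes with a window, the 3 lower genes with the largest difference among those with 1 window, and Zfp36l1 as the lower gene with the best known function. They are shown so that the sequences before genes of opposite direction can be set side by side. Capitals mark matches on either strand to 1 of 7 motifs. One is CCAAT, bound by the factor NF-Y, and another is CCGGAAG for the ETS family of factors. Also searched were AAGATGGC for the factor YY1, the GATA motif with the letters AGATAA, and the letters CCACACCC for KLF factors. The longer NRF1 and ZNF143 motifs were searched as well, each with 1 free base. The windows are chr7:29815822-29816071 (plus strand) for Zfp790, chr11:58306819-58307068 (plus strand) for Zfp692, chr7:4914967-4915216 (plus strand) for Zfp628, chr9:20521420-20521669 (minus strand) for Zfp266, chr17:21707491-21707740 (plus strand) for Zfp760, chr5:124862455-124862704 (plus strand) for Zfp664 and chr12:80113014-80113263 (minus strand) for Zfp36l1, each given 5′ to 3′ along the gene.
Zfp790: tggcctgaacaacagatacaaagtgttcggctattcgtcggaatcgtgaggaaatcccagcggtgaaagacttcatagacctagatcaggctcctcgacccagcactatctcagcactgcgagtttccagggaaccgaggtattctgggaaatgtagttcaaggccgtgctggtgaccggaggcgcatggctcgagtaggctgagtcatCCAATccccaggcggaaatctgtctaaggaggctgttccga
Zfp692: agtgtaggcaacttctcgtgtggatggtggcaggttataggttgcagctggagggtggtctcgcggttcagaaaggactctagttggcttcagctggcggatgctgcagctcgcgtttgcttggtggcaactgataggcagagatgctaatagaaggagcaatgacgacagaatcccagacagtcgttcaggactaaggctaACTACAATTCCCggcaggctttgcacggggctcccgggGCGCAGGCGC
Zfp628: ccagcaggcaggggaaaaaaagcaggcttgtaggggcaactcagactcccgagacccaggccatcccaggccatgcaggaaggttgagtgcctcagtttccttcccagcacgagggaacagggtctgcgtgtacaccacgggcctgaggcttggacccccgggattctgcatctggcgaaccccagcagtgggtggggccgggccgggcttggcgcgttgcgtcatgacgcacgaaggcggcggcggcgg
Zfp266: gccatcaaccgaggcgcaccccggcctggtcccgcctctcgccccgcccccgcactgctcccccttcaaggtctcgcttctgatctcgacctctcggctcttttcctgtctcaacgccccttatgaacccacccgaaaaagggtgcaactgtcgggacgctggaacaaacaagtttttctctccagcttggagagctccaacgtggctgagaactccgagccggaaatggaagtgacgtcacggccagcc
Zfp760: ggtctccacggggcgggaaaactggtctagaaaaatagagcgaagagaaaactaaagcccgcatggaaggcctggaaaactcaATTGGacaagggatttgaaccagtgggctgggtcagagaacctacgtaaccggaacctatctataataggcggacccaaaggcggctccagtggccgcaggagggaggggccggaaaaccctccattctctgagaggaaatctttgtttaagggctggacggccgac
Zfp664: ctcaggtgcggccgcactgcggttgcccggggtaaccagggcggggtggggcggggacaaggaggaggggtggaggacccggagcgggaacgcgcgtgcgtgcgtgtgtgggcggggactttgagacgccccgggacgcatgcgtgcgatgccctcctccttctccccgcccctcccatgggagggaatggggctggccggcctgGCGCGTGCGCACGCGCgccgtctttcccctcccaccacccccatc
Zfp36l1: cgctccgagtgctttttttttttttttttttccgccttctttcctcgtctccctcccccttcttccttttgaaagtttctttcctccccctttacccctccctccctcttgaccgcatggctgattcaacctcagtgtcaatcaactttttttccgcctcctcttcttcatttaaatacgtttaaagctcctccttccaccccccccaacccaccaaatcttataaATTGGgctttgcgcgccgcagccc

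Among the higher genes, the Zfp790 window held CCAAT, the Zfp692 window held the ZNF143 and NRF1 motifs, and the Zfp628 window held none of the 7 motifs. Among the lower genes, Zfp760 and Zfp36l1 held CCAAT on the opposite strand, Zfp664 held a pair of NRF1 matches that overlap each other, and Zfp266 held none. No other matches overlapped. A promoter window was found for 170 of the 205 members (212 windows). CCAAT was present in 48.1% of these windows, in 35.2% of the windows of all measured genes and in 33.8% of all windows in the table. The ETS motif was present in 14.6% of the members' windows, in 13.7% of those of measured genes and in 6.91% of all windows. NRF1 was present in 7.55%, 8.04% and 3.74%, YY1 in 1.42%, 2.06% and 1.56%, and ZNF143 in 2.83%, 2.0% and 0.883%. The GATA letters were in 8.02%, 6.45% and 9.99% and the KLF letters in 3.77%, 3.45% and 3.20%. The median difference was -0.22 for the 90 members with CCAAT, -0.21 for 27 with the ETS motif and -0.37 for 15 with NRF1. It was -0.02 for 16 members with the GATA letters, -0.20 for 8 with the KLF letters, 0.05 for 6 with ZNF143 and -0.36 for 3 with YY1. These matches are descriptions of the letters in a window and not of binding.

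Named roles were spread over both sides of 0. In the CCCH-type Zfp36 family all 4 listed genes were measured, 3 below 0 and 1 above (55.8% of all measured genes were below 0). The median of the 4 was -0.24, against -0.08 over all measured genes. Zfp36l1, described above, was the only one at least 2-fold apart. Zfp36l2, which keeps erythroid progenitors self-renewing, gave 6064 units in SoNar-high and 8990 units in SoNar-low, a log2 difference of -0.32 ± 0.20. Zfp36, also known as tristetraprolin, gave 99.2 against 132.0 units (-0.16 ± 0.25), a value that turned positive (0.02) with the percentile over detected probes. Zfp36l3, known from the placenta, gave 89.5 against 59.7 units (0.84 ± 0.30). The differences of Zfp36l2 and Zfp36 lay within 2 spot errors.

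The list of Zfp genes with roles in RNA processing, translation, the nucleolus or the spindle had 13 of 14 genes measured, none at least 2-fold apart, 10 below 0 and 3 above (55.8% of all measured genes were below 0). Its median was -0.21 against -0.08 over all genes, and -0.030 against 0.10 with the 75th percentile of detected probes. The lowest were Zfp593, which acts in the making of the large ribosomal subunit, with 330.9 against 742.7 units (-0.91 ± 0.21), and Zfp326, a partner of RNA polymerase II in splicing, with 421.6 against 895.0 units (-0.83 ± 0.21). Zfp330, a nucleolar protein, gave 1501 against 2841 units (-0.67 ± 0.20), and its second probe gave -0.83. Zfp706 gave 1339 against 2344 units (-0.56 ± 0.20). These 4 genes were the ones of the list lower by more than 2 spot errors. Zfp207 (BuGZ), which loads a checkpoint protein onto kinetochores, gave 2085 against 3196 units (-0.36 ± 0.20). Close to 0 were Zfp598, the ubiquitin ligase that senses collided ribosomes (-0.21 ± 0.21), Zfp830 (-0.18 ± 0.23), Zfp638 (-0.11 ± 0.21) and Zfp622, which acts in ribosome maturation (-0.03 ± 0.20). Zfp638 and Zfp622 were positive under other scalings, up to 0.06 and 0.21. Zfp318, which controls IgD splicing in B cells, had -0.42 ± 0.28, while Zfp385a (0.00), Zfp871 (0.08) and the RNA-binding Zfp106 (0.18) were at or above 0.

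Of 19 listed C2H2 factors studied in blood or stem cells, 11 were measured, 6 below 0 and 5 above (55.8% of all measured genes were below 0). Their median was -0.37 against -0.08 over all genes. Without the filter on dim probes it was 0.027 against 0.024 over all genes. The list was drawn up for factors without a KRAB domain, although Zfp90 carries one. Apart from Zfp711, the lower genes were Zfp148 (ZBP-89), Zfp90, Zfp131, Zfp296 and Zfp217. Zfp148 gave 363.7 units in SoNar-high and 784.9 units in SoNar-low (-0.86 ± 0.21), but its second probe gave 0.08. Zfp131, which has a BTB domain, gave 363.6 against 755.1 units (-0.80 ± 0.21), and Zfp90 gave 58.5 against 122.5 units (-0.81 ± 0.28). Zfp296 had -0.42 and Zfp217 -0.37. On the other side, Zfp384 (CIZ), a nuclear matrix factor, gave 85.7 against 51.8 units (0.98 ± 0.34). Zfp703, a co-repressor, gave 394.6 against 309.7 units (0.60 ± 0.21), and Zfp335, needed for T-cell maturation, 103.2 against 81.8 units (0.59 ± 0.27). Zfp143, whose human counterpart ZNF143 binds the motif found before Zfp692, had 0.27 ± 0.22, and Zfp281 had 0.14 ± 0.21, or -0.01 after normexp. Zfp42 (Rex1), Zfp423, Zfp462, Zfp516 and Zfp521 were not well above background on either array.

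Of 8 listed KRAB zinc finger genes of imprinting and retroelement silencing, 3 were measured and none was 2-fold apart. Their median was 0.24, against -0.08 over all genes. Zfp57, which protects imprinted marks, gave 76.9 against 65.4 units (0.49 ± 0.30), and Zfp445, which acts beside it, 188.2 against 190.2 units (0.24 ± 0.22). Zfp932, a silencer of endogenous retroviruses, gave 161.1 against 315.2 units (-0.72 ± 0.21). The list had 1 gene below and 2 above 0 (55.8% of all measured genes were below 0). With processed signals of at least 100 required, its median was -0.24, against -0.13 over all genes. Zfp809, which silences murine leukaemia virus sequences, and Zfp568 were detected only on the SoNar-high array. Zfp459 and Zfp708 were detected on neither, and 1 listed name had no match in the gene table.

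KRAB zinc finger factors act through co-repressor and heterochromatin proteins. Of 38 listed genes for these, 33 were measured, 25 below 0 and 8 above (55.8% of all measured genes were below 0), with a median of -0.42 against -0.08 over all genes. Under the other settings the list's median lay between -0.42 and -0.24. None was at least 2-fold higher (5.28% of all measured genes were) and 2 were at least 2-fold lower (4.44% of all measured genes were). Mphosph8, a subunit of the HUSH silencing complex, gave 172.8 against 473.3 units (-1.20 ± 0.21, and -0.91 after normexp). Cbx5, which encodes the heterochromatin protein HP1alpha, gave 55.5 against 147.0 units (-1.15 ± 0.29), with a second probe at -0.27 and a value of -0.41 after normexp. Trim28, the co-repressor itself, stood on the other side, with 493.9 units in SoNar-high and 470.6 units in SoNar-low, a log2 difference of 0.32 ± 0.21. Setdb1, the methyltransferase it recruits, gave 73.4 against 154.1 units (-0.82 ± 0.25). Trim28 was positive (0.10 to 0.50) and Setdb1 negative (-0.94 to -0.51) under all settings, and Trim28 lay within 2 spot errors. Cbx1 and Suv39h1 were detected on neither array.

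**Figure D5:**
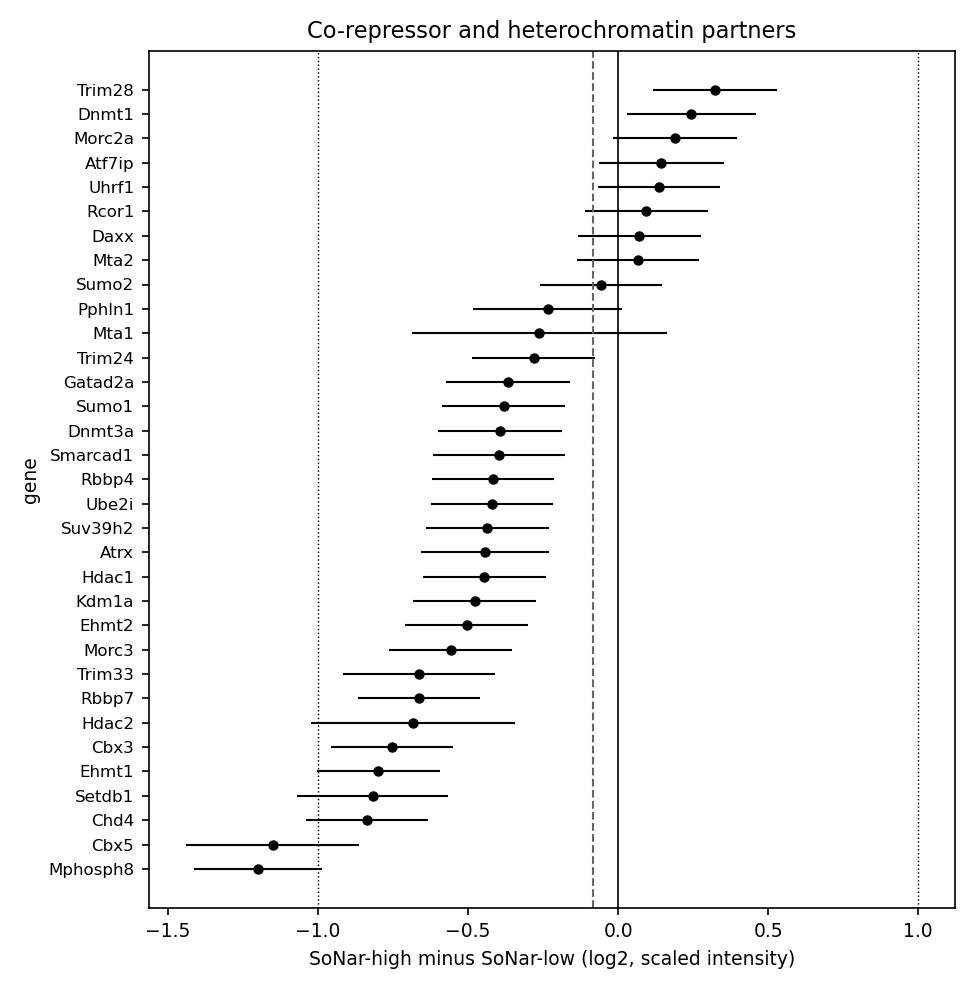
Log2 difference (SoNar-high minus SoNar-low) of the 33 measured co-repressor and heterochromatin genes, with the scanner's spot error as bars. Dotted lines mark 2-fold and the dashed line the median of all genes (-0.08), and 25 genes lie below 0 with Mphosph8 and Cbx5 lowest and Trim28 highest.

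Of the 10 members with the strongest signal, Zfp628 was the only one at least 2-fold apart, and Zfp622, Zfp36l2, Zfp207, Zfp330 and Zfp706 are given above. A probe's brightness depends on its sequence, so signals do not order transcripts. Zfp408 gave 15242 units in SoNar-high and 16666 units in SoNar-low (0.12 ± 0.20). Zfp658 gave 4551 against 6224 units (-0.20 ± 0.20), and Zfp710 3787 against 3729 units (0.28 ± 0.20). Zfp771 gave 1622 against 2131 units (-0.14 ± 0.20). These last 4 lay within 2 spot errors, and Zfp658 and Zfp771 turned positive under other scalings, up to 0.04 and 0.08.

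Members that lie next to each other in the genome had opposite signs in 16 of 36 pairs. With 69.8% of all members below 0, pairs of mixed sign are common wherever the genes lie. No rate for pairs that are not neighbours was computed. In the order of protein-coding genes, 93 members had another Zfp gene as direct neighbour and 112 had none. The medians were -0.17 and -0.27, and 68.8% and 70.5% lay below 0. Both members were measured in 36 neighbouring pairs, of which 18 were both below 0 and 2 both above 0. In none were both at least 2-fold apart. The widest gap was between Zfp959 (0.14) and Zfp119b (-1.79), and Zfp266 (-1.51) lay between Zfp426 (0.03) and Zfp846 (0.24). The narrowest gap was between Zfp976 (-0.92) and Zfp975 (-0.84). Pearson's r over the pairs was -0.18, given as a description, since pairs share genes and related copies can share probe targets.

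The other 164 Zfp genes with a probe were not measured by 1 probe on both arrays. Of these, 131 passed the detection flag on neither array, 27 in SoNar-high only, 4 in SoNar-low only, and Zfp26 and Zfp758 on both but by different probes. Of the Zfp genes on 1 array, 87.1% were thus on the SoNar-high one, against 91.4% of all genes on 1 array (1621 against 152). For the genes on 1 array only a bound can be given. It sets the bright value against whichever is larger on the other array, the gene's own value or the lowest that passed the flag there. The only one with a bound of at least 2-fold was Zfp595, at least 2.28-fold higher in SoNar-low (18.0 units in SoNar-high and 82.1 units in SoNar-low, and 1.53-fold after normexp). Over all named genes, 0.978% had such a bound towards SoNar-high and 0.165% towards SoNar-low. The largest bounds towards SoNar-high were those of Zfp111 (at least 1.94-fold), Zfp809 (1.88-fold), Zfp503 (1.78-fold), Zfp395 (1.57-fold) and Zfp58 (1.52-fold), and after normexp they lay between 1.20-fold and 1.37-fold. With the 75th percentile of detected probes 3 of them passed 2-fold, Zfp111 at 2.19-fold, Zfp809 at 2.12-fold and Zfp503 at 2.02-fold, and with the median of detected probes 1 did. Zfp184 (1.53-fold), Zfp600 (1.38-fold) and Zfp473 (1.14-fold) followed Zfp595 on the SoNar-low side. Near the detection limit, Zfp551 missed the rule with 46.4 units in SoNar-high and 45.4 in SoNar-low, while Zfp952 met it with 49.4 and 38.4 units.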

How the data were processed

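Arrays were scanned in 1 colour (Cy3). The spot intensities (processed signal, its error, median signal and local background) were deposited by the authors as Agilent Feature Extraction output, background-subtracted within each array, per the file headers. The version is 11.0.1.1 in the file headers and 9.1 in the submitters' processing notes. The authors' value table, deposited beside the scanner output, is in log2 units, and neither label nor header says how it was normalized. Both its columns had a median of 4.80 and, sorted, differed by at most 0.000544, as columns do after quantile normalization. Its Zfp median was -0.260, against -0.259 with quantile normalization here, so these 2 settings nearly repeat each other. Array differences in the table and in the scanner signals had a correlation of 0.966 across probes, which settled its direction, and it served as an alternative only.

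Each group had 1 array, placed by its source label, so there was no test and no replicate error. Control spots and outlier spots (225 on SoNar-high, 135 on SoNar-low) were left out, and no spot was saturated. Each array's 75th percentile over 43020 spots was subtracted on the log2 scale. Each gene was given by its brightest probe well above background on both arrays. Probes were named through RefSeq accessions: 27229 of 39420 probes matched 1 gene and 12191 stayed unnamed. The GRCm38.p6 table was used for names, gene order and the promoter windows only, as the array design refers to mm9.

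The named genes are the members at least 2-fold apart, those just under that size, the brightest, those on role lists, those with the largest bounds and those whose probes disagree, with some left out for length. The members and lists were chosen with earlier results of these data known. The planned split by KRAB domain was not analysed here. Scripts were tested on simulated data. Python 3.11.15, pandas 2.3.3, statsmodels 0.14.6, R 4.3.3 and limma 3.58.1 were used. The alternatives were normexp (offset 50, median spot signal), 2 scalings on detected probes, quantile normalization, loess (span 0.3), the deposited table, dim probes kept in, a minimum signal of 100, the median over probes, outlier spots kept and a 3-fold threshold. A value counted as moved beyond 0.148 (log2), the median SD of the difference between repeat spots of 213 probes printed 10 times, and a count beyond 1.5 times. That SD is one of single probes and gives no precision for a median over genes.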

Additional observations from a re-analysis of the deposited data

How the results depend on the processing

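The median of the Zfp genes was -0.21 and came to -0.032 with the 75th percentile of detected probes, -0.090 without the filter on dim probes, -0.13 after normexp and -0.16 with the median of detected probes. It was -0.26 after quantile normalization and in the deposited table. The 4 higher and 15 lower genes became 1 and 5 after normexp (2.46% and 2.51% of all genes). They became 7 and 9 with the 75th percentile of detected probes (7.99% and 2.22% of all genes). At 3-fold they became 1 and 2 (1.43% and 0.47% of all genes). Without the filter on dim probes they became 29 and 21, with more higher than lower, now out of 369 Zfp genes (7.86% and 5.69%). The matching shares of all genes were 12% and 3.19%. With the 75th percentile of detected probes the list medians were -0.060 (Zfp36 family), 0.41 (imprinting and retroelements), -0.19 (C2H2 factors), -0.030 (RNA, translation, nucleolus or spindle) and -0.24 (co-repressors). The co-repressor median was -0.26 after quantile normalization and in the deposited table and -0.25 after loess. The C2H2 factor median was -0.19 after loess, -0.23 after quantile normalization and in the deposited table, and turned to 0.027 without the filter. The imprinting median was 0.49 without the filter and turned to -0.24 with signals of at least 100, where that of the Zfp36 family was -0.75. The cause was not tested. The other 71 values of these sets and counts kept their direction, though not always their size. Of the differences of single named genes, 474 values stayed within 0.148 (log2) of the reported one and 205 moved beyond it, and no difference of at least 2-fold changed sign. Dim probes limit the precision, since 5 of the 15 lower genes had under 100 units on the SoNar-high array. No paired analysis was possible because each group had 1 array.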

Other observations

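Other zinc finger families named by symbol had medians on the same side of 0, as had all measured genes (-0.08). Of 24 measured Zbtb genes, whose proteins join a BTB domain to zinc fingers, 15 (62.5%) were below 0, against 55.8% of all measured genes. The median of these Zbtb genes was -0.33 (between -0.45 and -0.12 under other settings). Zbtb18 was the only one at least 2-fold apart, with 256.7 units in SoNar-high and 645.9 units in SoNar-low, a log2 difference of -1.08 ± 0.21, and 4.44% of all measured genes were at least 2-fold lower. No Zbtb gene was at least 2-fold lower after normexp, after loess or with the 75th percentile of detected probes (2.51%, 3.39% and 2.22% of all genes were). In these settings 0, 1 and 2 were at least 2-fold higher (2.46%, 6.35% and 7.99% of all genes were). Zbtb22, at 0.96 ± 0.30, was the highest.

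The 13 measured Zc3h genes, which encode CCCH-type RNA-binding proteins, had a median of -0.21 (between -0.23 and -0.03 under other settings). Of these, 10 (76.9%) were below 0, against 55.8% of all measured genes. None was at least 2-fold apart (5.28% of all measured genes were higher and 4.44% lower), and they ran from Zc3h15 (-0.99) to Zc3h14 (0.62). The 10 measured Zscan and Zkscan genes, whose proteins carry a SCAN domain, had a median of -0.14, or 0.04 with the 75th percentile of detected probes. Of these 10, 6 (60%) were below 0, against 55.8% of all measured genes. Zkscan1 alone was at least 2-fold higher in SoNar-high (5.28% of all measured genes were). It gave 662.8 against 382.6 units (1.05 ± 0.21), but its 3 measured probes ran from -0.45 to 1.05. With the median over probes no gene of this family was at least 2-fold higher (5.18% of all genes were). Zscan18 was lowest at -0.95.

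Among the 41 Zfp genes with more than 1 measured probe, probes differed in sign in 13, and in 2 of those they were over 1 (log2) apart. These were Zfp664 and Zfp7, the latter with probes at -0.84 and 0.92. The median spread between the probes of a single Zfp gene was 0.39 (log2).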
